A study of Homo sapiens with 8 samples.

Results

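The human mitochondrial genome carries 37 genes, and all 37 had a row in the gene table of 60282 rows (names beginning with MT-). They comprised 13 mRNAs, 2 rRNAs and 22 tRNAs, and these 3 classes were described separately. The RNA came from SK-UT-1, an established uterine leiomyosarcoma cell line, and the study asked how the transcriptome of these cells changed with TP-472, an inhibitor of the bromodomain proteins BRD9 and BRD7. Cells received 5 µM TP-472 for 48 h (4 libraries) or the DMSO vehicle (4 libraries), and both groups shared the same line and culture medium. The vehicle libraries held 34433517, 36634103, 32574672 and 36407781 estimated counts, and the TP-472 libraries held 38545464, 37674481, 37426900 and 36246277. A single line was used. The study's methods speak of biological replicates for its experiments in general without describing how those of these libraries were made, so p-values measure the spread between these libraries, part of which may be technical. The line expressed the smooth muscle genes ACTA2 (146, 172, 145 and 176 CPM in vehicle replicates 1 to 4) and CALD1 (198, 211, 178 and 210 CPM). CPM are counts relative to library size, with the library sizes corrected by the TMM method. TPM2, SMTN, TAGLN and MYLK had vehicle means of 447, 81.3, 32.2 and 14.3 CPM. Those of DES, LMOD1 and CNN1 were only 3.24, 2.52 and 1.25 CPM. Among leukocyte genes, CD3E was listed at 0 in all 8 libraries, while CD68 had a vehicle mean of 7.51 CPM. The smooth muscle myosin gene MYH11 and the uterine hormone receptor genes ESR1 and PGR were at or near 0 in every vehicle library.

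Mitochondrial DNA is a small circular genome whose strands, named heavy and light, are each copied into long precursor RNAs by the polymerase POLRMT with the factors TFAM and TFB2M. The tRNAs lie between most of the other genes and are cut out of the precursors, which frees the mRNAs and rRNAs. The mRNAs encode core subunits of complexes I, III, IV and V of oxidative phosphorylation, while the rRNAs build the mitochondrial ribosome. Every other subunit, and every protein that copies, cuts, protects or degrades mitochondrial RNA, is made from nuclear genes. In RNA from whole cultures, fewer mitochondria per cell and less RNA per mitochondrion cannot be told apart.

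The gene order and the lack of spacing matter for how the counts are read, so stretches of the reference are shown here (GRCh38, chrM, from the GENCODE release 29 annotation). MT-ATP8 and MT-ATP6, which encode adjoining subunits of ATP synthase, share 46 bases at chrM:8527-8572. MT-ND4L and MT-ND4, which encode complex I subunits, share 7 bases at chrM:10760-10766. Among the 31-base words of MT-ATP8, 9.04% also occur in another mitochondrial gene, and 2.46% of those of MT-ATP6 do. For MT-ND4L and MT-ND4 this share is 0%. The shared bases are in capitals in the lines below, and they alone do not tell the 2 genes of a pair apart.
MT-ATP8 end: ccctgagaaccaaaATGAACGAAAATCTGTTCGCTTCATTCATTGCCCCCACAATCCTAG
MT-ATP6 start: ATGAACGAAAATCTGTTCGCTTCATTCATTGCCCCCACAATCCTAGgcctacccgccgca
MT-ND4L end: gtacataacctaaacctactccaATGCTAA
MT-ND4 start: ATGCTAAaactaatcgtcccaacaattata

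The tRNA genes are far shorter than the mRNAs, and 3 of them (for histidine, serine and leucine) stand without a gap between MT-ND4 and MT-ND5. They are shown because both flanking mRNAs fell with TP-472 while the tRNA rows had no counts. MT-TH lies at chrM:12138-12206, MT-TS2 at chrM:12207-12265 and MT-TL2 at chrM:12266-12336, all on the plus strand.
MT-TH: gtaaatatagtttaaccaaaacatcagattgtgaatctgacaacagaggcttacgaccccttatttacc
MT-TS2: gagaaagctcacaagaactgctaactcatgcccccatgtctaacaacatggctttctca
MT-TL2: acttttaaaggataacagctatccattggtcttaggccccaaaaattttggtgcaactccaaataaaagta

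The mitochondrial code allows start codons other than ATG, such as ATA. The first 30 bases of the genes with the largest fall (MT-ND5) and the largest positive value (MT-ND3) and of MT-CO3 show both of these, with the start codon in capitals.
MT-ND5 (chrM:12337-12366): ATAaccatgcacactactataaccacccta
MT-ND3 (chrM:10059-10088): ATAaacttcgccttaattttaataatcaac
MT-CO3 (chrM:9207-9236): ATGacccaccaatcacatgcctatcatata

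Vehicle replicate 3 stood apart from the other libraries. Its median Spearman correlation with the rest of its group, across genes, was 0.914, whereas the other libraries of both groups reached 0.988 to 0.997 with their own groups. Within the mitochondrial rows its MT-ND1 level was 2.42 times the mean of the other vehicle libraries, its MT-RNR2 level 0.485 times, its MT-ND3 level 0.183 times and its MT-ND6 level 0.130 times. Values without that library are therefore given beside the mitochondrial changes, and beside those of nuclear genes whose call ended without it. Vehicle replicates 1, 2 and 4 did not agree closely in these rows either. Their summed mitochondrial mRNAs were at 3050, 2258 and 2127 CPM, MT-CYB at 136, 69.7 and 64.1 CPM and MT-ND3 at 8.71, 23.5 and 25.6 CPM.

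Mitochondrial rows took a small share of every library, and that share was lower in all TP-472 libraries. The share of all counts was 0.405%, 0.312%, 0.424% and 0.285% in vehicle replicates 1 to 4, a mean of 0.356% ± 0.0680 (SD, n = 4). It was 0.275%, 0.216%, 0.199% and 0.282% in TP-472 replicates 1 to 4, a mean of 0.243% ± 0.0419 (SD, n = 4). The groups did not overlap, although vehicle replicate 4 and TP-472 replicate 4 lay within a narrow distance of each other. The ratio of the means was 0.682, and without vehicle replicate 3 the vehicle mean was 0.334% ± 0.0627 (SD, n = 3). No p-value is given for sums over these rows, because the set was chosen with earlier results of these data known.

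The mRNAs made up most of this share. They took 0.321%, 0.215%, 0.375% and 0.208% of the counts in the vehicle libraries and 0.178%, 0.157%, 0.152% and 0.220% in the TP-472 libraries. TP-472 replicate 4 thus lay above vehicle replicates 2 and 4, and the shares overlapped. The group means were 0.280% ± 0.0818 and 0.177% ± 0.0312 (SD, n = 4 each), and the vehicle mean was 0.248% without replicate 3. The TMM-corrected CPM introduced above are used for all levels below. On this scale the summed mRNAs were at 3050, 2258, 3531 and 2127 CPM with vehicle. With TP-472 they were at 1770, 1658, 1573 and 2104 CPM, and the groups did not overlap.

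**Figure D1:**
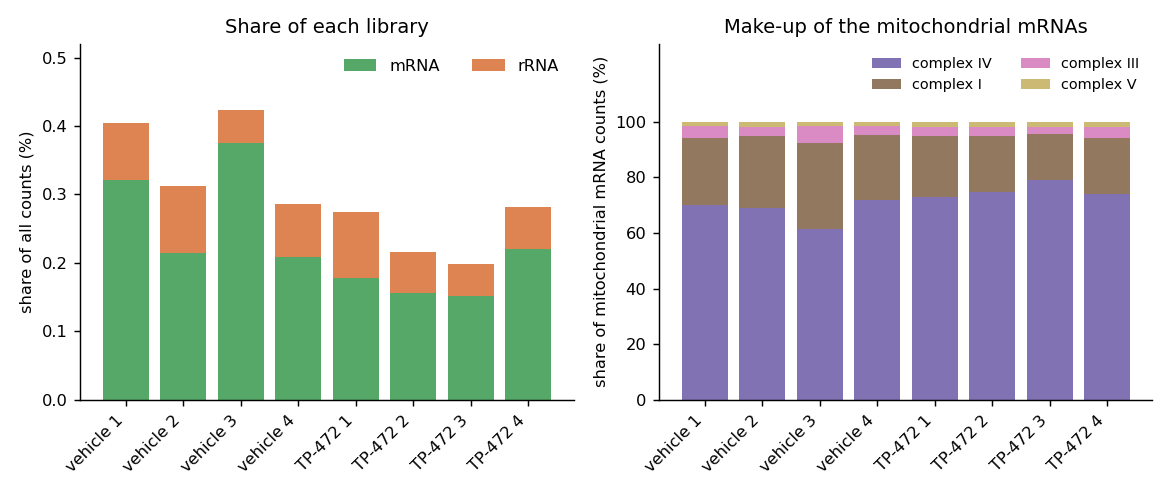
The left panel shows, for each library, the share of all counts (%) in the mitochondrial mRNA and rRNA rows as stacked bars; the right panel splits the mitochondrial mRNA counts of each library by the complex their proteins join (%). The total in the left panel ranged from 0.285% to 0.424% with vehicle and from 0.199% to 0.282% with TP-472, and the complex I part in the right panel was smaller in all 4 TP-472 libraries.

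Of the 15 mRNAs and rRNAs, which all passed the filter on low counts (over 1 CPM in at least 4 libraries), 5 were called lower with TP-472 and none higher. A gene was called when edgeR's quasi-likelihood test gave a Benjamini-Hochberg adjusted p under 0.05 and the fold change was over 1.5. The called genes were the mRNAs MT-ND5, MT-ND4, MT-ND1, MT-ND4L and MT-CO1, so 33.3% of the 15 were called lower, against 14.9% of the 14073 genes tested. Across all tested genes 12% were called higher and 26.9% in either direction. The median log2 fold change of the 13 mRNAs was -0.73, beside -0.03 for all genes tested, and 11 of 13 were below 0, beside 51.8% of all genes. Without vehicle replicate 3, the number called lower was again 5 (background 13.1% lower, 12% higher and 25% in either direction), and the median of the mRNAs was -0.48. The number was 2 without TP-472 replicate 1, 2 or 3, 3 without vehicle replicate 1 and 9 without vehicle replicate 4. Over all tested genes, 2096 were called lower with all libraries, and 1417, 1345 and 1321 without TP-472 replicates 1, 2 and 3. Without vehicle replicate 1 this number was 1627, and without vehicle replicate 4 it was 2240.

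Complex I is the entry point of electrons from NADH and holds 7 of the mitochondrial gene products. MT-ND5, the longest of the mRNAs (1812 bases), encodes a proton-pumping subunit of its membrane arm. Its levels were 211, 151, 323 and 122 CPM in vehicle replicates 1 to 4 and 93.0, 79.2, 56.1 and 99.5 CPM in TP-472 replicates 1 to 4. No TP-472 library reached the lowest vehicle value. The gene fell by 1.30 ± 0.31 on the log2 scale (SE, edgeR's quasi-likelihood test, adjusted p = 0.0116), which is 2.46-fold lower, and by 0.98 without vehicle replicate 3 (adjusted p = 0.00352).

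MT-ND4 encodes another subunit of that membrane arm. It was at 279, 227, 354 and 190 CPM with vehicle and at 133, 108, 85.2 and 158 CPM with TP-472, again with no overlap. The fall was 2.17-fold (log2 fold change -1.12 ± 0.24, SE, adjusted p = 0.00756 by edgeR's quasi-likelihood test), and -0.94 without vehicle replicate 3 (adjusted p = 0.00277). MT-ND5 and MT-ND4 were the only mitochondrial genes called under each of the 20 alternative fits described in the closing section.

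MT-ND4L, the gene that overlaps MT-ND4, varied little among the vehicle libraries. Its levels were 28.7, 25.9, 28.9 and 24.0 CPM with vehicle and 16.1, 13.5, 12.3 and 22.8 CPM with TP-472. TP-472 replicate 4 came close to the vehicle range without entering it. The gene was 1.66-fold lower (log2 fold change -0.73 ± 0.19, SE, edgeR's quasi-likelihood test, adjusted p = 0.0189), and its value was -0.70 without vehicle replicate 3 (adjusted p = 0.0102).

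MT-ND1, which encodes a subunit at the joint of the 2 arms of complex I, was at 114, 87.6, 221 and 71.98 CPM with vehicle and at 62.9, 54.99, 38.1 and 61.8 CPM with TP-472. The groups did not overlap, and vehicle replicate 3 was far above its group. The log2 fold change was -1.18 ± 0.34 (SE, edgeR's quasi-likelihood test, adjusted p = 0.0255), and -0.75 without that library (adjusted p = 0.00747). The calls of MT-ND1, MT-ND4L and MT-CO1 were each lost when TP-472 replicate 1, 2 or 3 was left out, with adjusted p of at most 0.0792, 0.0661 and 0.0682 by the same test. Leaving out vehicle replicate 1 also ended the calls of MT-ND1 and MT-CO1, and leaving out TP-472 replicate 4 that of MT-ND1.

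The other complex I mRNAs did not pass the test with all libraries, although MT-ND2 was called in 7 of the 20 alternative fits. MT-ND2 was at 95.7, 65.2, 153 and 58.1 CPM with vehicle and at 55.5, 49.6, 41.5 and 63.3 CPM with TP-472 (log2 fold change -0.82 ± 0.29, SE, adjusted p = 0.0546 by edgeR's quasi-likelihood test). Its groups overlapped, since TP-472 replicate 4 exceeded vehicle replicate 4.

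MT-ND3, a short mRNA of 346 bases, was at 8.71, 23.5, 3.52 and 25.6 CPM with vehicle and at 22.05, 22.5, 24.5 and 19.7 CPM with TP-472. Vehicle replicates 1 and 3 were low, vehicle replicate 2 lay within the TP-472 range and vehicle replicate 4 just above it. The log2 fold change was 0.53 ± 0.51 (SE, edgeR's quasi-likelihood test, adjusted p = 0.424).

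MT-ND6 is the only mRNA on the light strand. Its levels were 2.598, 7.60, 0.78 and 7.76 CPM with vehicle and 6.04, 5.17, 3.76 and 3.53 CPM with TP-472. The same vehicle libraries, replicates 1 and 3, were low as for MT-ND3, and the log2 fold change of -0.02 ± 0.58 (SE, adjusted p = 0.983 by edgeR's quasi-likelihood test) was far smaller than its error and changed sign between fits. Expressed against the 12 heavy-strand mRNAs, MT-ND6 counts amounted to 0.0852%, 0.338%, 0.0221% and 0.366% with vehicle and to 0.343%, 0.313%, 0.240% and 0.168% with TP-472. MT-ND6 lies opposite the heavy-strand transcript, and whether strand was used in the counting is not given in the sources used here, so reads of the 2 strands may not have been separated.

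Complex IV, cytochrome c oxidase, has 3 mitochondrial subunits that form its catalytic core, and their mRNAs differed in how they moved. MT-CO1 encodes the subunit that binds the oxygen-reducing centre. It stood at 1413, 943, 1253 and 928 CPM with vehicle and at 679, 659, 646 and 877 CPM with TP-472. The groups did not overlap, and TP-472 replicate 4 was nearer to vehicle replicates 2 and 4 than to the other TP-472 libraries. The fall was 1.59-fold (log2 fold change -0.67 ± 0.18, SE, edgeR's quasi-likelihood test, adjusted p = 0.0188), with a value of -0.62 without vehicle replicate 3 (adjusted p = 0.00983). In the reference, 66.7% of the 31-base words of this gene also occur in other genes, chiefly the nuclear pseudogene MTCO1P12.

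MT-CO2 encodes the subunit that takes electrons from cytochrome c. It was at 300, 249, 566 and 241 CPM with vehicle and at 214, 203, 207 and 239 CPM with TP-472. The groups did not overlap, yet vehicle replicate 4 and TP-472 replicate 4 nearly met. The log2 fold change was -0.65 ± 0.26 (SE, edgeR's quasi-likelihood test, adjusted p = 0.0791), and without vehicle replicate 3 it was -0.29 (adjusted p = 0.0204, short of the 1.5-fold limit).

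MT-CO3 encodes the third core subunit. Its levels were 419, 367, 354 and 358 CPM with vehicle and 394, 379, 387 and 438 CPM with TP-472. The groups overlapped through vehicle replicate 1 alone, the other vehicle libraries being below all TP-472 libraries, with a log2 fold change of 0.09 ± 0.10 (SE, edgeR's quasi-likelihood test, adjusted p = 0.498). Within a library the ratio of MT-CO3 to MT-CO1 counts does not depend on scaling, and it was 0.297, 0.389, 0.282 and 0.385 with vehicle and 0.580, 0.574, 0.600 and 0.499 with TP-472. All TP-472 libraries lay above all vehicle libraries in this ratio. The ratio was not among those planned, and MT-CO1 alone already had no overlap, so this is not a separate result. Another unplanned ratio, that of MT-ND3 to MT-ND5 counts, overlapped between the groups (0.0109 to 0.209 with vehicle and 0.198 to 0.436 with TP-472).

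Complex III has a single mitochondrial subunit, cytochrome b, encoded by MT-CYB. Its mRNA was at 136, 69.7, 219 and 64.1 CPM with vehicle and at 58.4, 52.4, 43.3 and 81.7 CPM with TP-472. TP-472 replicate 4 exceeded vehicle replicates 2 and 4, and the test was not passed (log2 fold change -1.05 ± 0.39, SE, adjusted p = 0.0618 by edgeR's quasi-likelihood test).

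ATP synthase, complex V, has the overlapping pair shown above. MT-ATP6 was at 39.2, 39.7, 48.9 and 34 CPM with vehicle and at 32.2, 29.7, 25.7 and 38.2 CPM with TP-472, a log2 fold change of -0.36 ± 0.16 (SE, edgeR's quasi-likelihood test, adjusted p = 0.0974). MT-ATP8 was far lower, at 2.82, 2.81, 5.60 and 1.54 CPM with vehicle and at 2.50, 1.88, 1.61 and 1.71 CPM with TP-472 (log2 fold change -0.73 ± 0.36, SE, adjusted p = 0.140 by the same test). Both overlapped between groups.

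**Figure D2:**
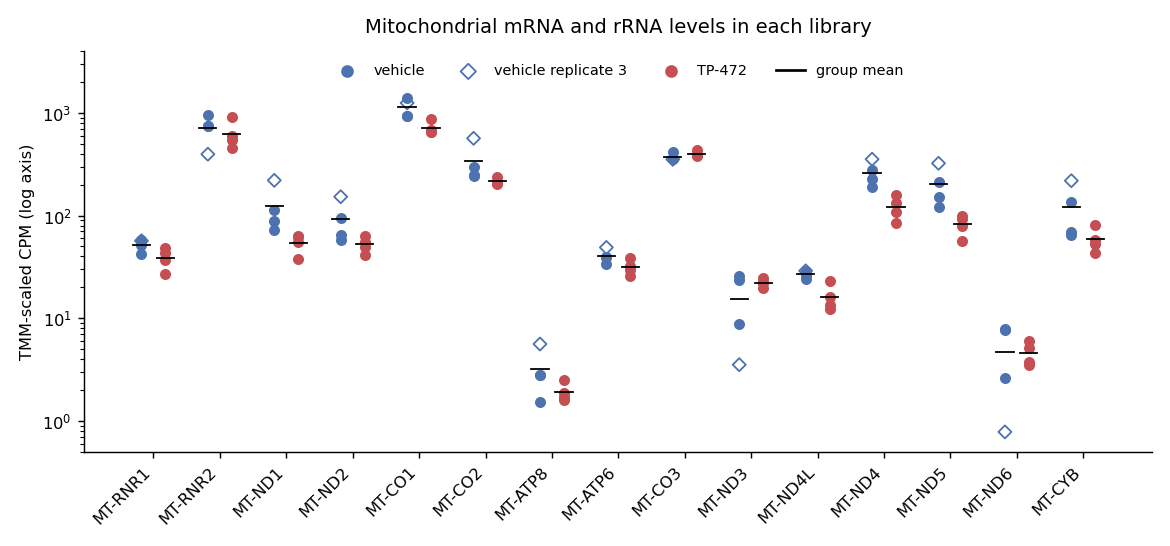
TMM-scaled CPM (log axis) of the 13 mitochondrial mRNAs and 2 rRNAs in each library, in genome order, with black bars at the group means and open diamonds for vehicle replicate 3. The TP-472 points of MT-ND5, MT-ND4, MT-ND4L, MT-ND1, MT-CO1 and MT-CO2 all lie below the vehicle points, while those of MT-CO3 and MT-ND3 overlap with them.

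Altogether, 6 mRNAs (MT-ND5, MT-ND4, MT-ND1, MT-ND4L, MT-CO1 and MT-CO2) were lower in every TP-472 library than in any vehicle library, and across all tested genes 21.6% were so. No mitochondrial row was higher in every TP-472 library, beside 23.8% of all tested genes. In genome order along the heavy strand, the mRNA values went from -1.18 at MT-ND1 through -0.82 at MT-ND2, -0.67 at MT-CO1 and -0.65 at MT-CO2 to 0.09 at MT-CO3 and 0.53 at MT-ND3. After MT-ND3 they were at -0.73 at MT-ND4L, -1.12 at MT-ND4, -1.30 at MT-ND5 and -1.05 at MT-CYB. MT-ATP8 (-0.73) and MT-ATP6 (-0.36) lay between MT-CO2 and MT-CO3. Without vehicle replicate 3, the genes that were not called with all libraries had log2 fold changes of -0.62 (MT-CYB), -0.48 (MT-ND2), -0.37 (MT-ND6), -0.31 (MT-ATP8), -0.29 (MT-CO2), -0.26 (MT-ATP6), 0.06 (MT-CO3) and 0.20 (MT-ND3), and MT-CO1 then lay below MT-ND2. This order is a description of 12 values, and no test of it was made.

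**Figure D3:**
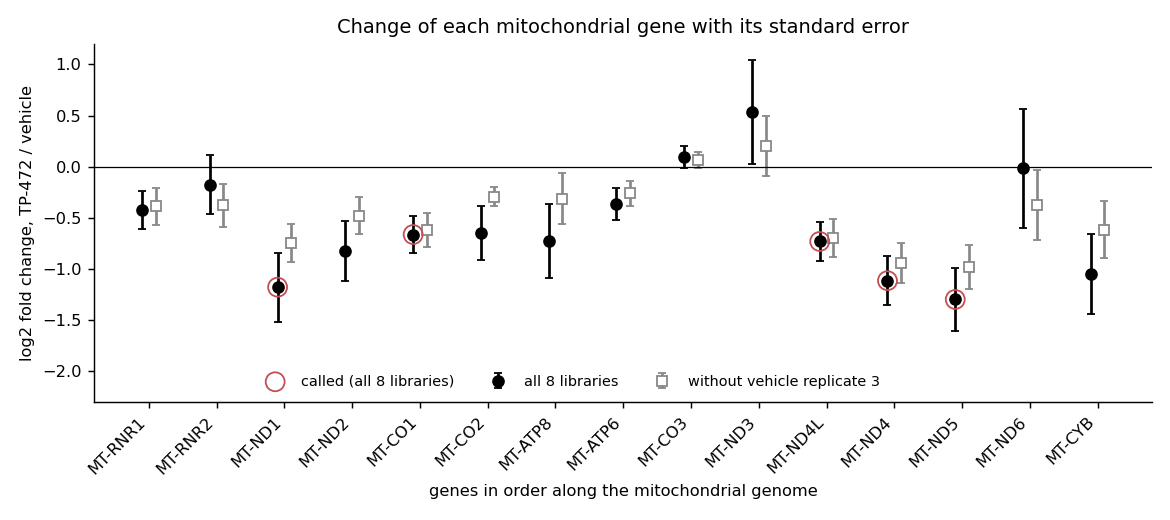
Log2 fold change (TP-472 over vehicle) with its standard error for each mRNA and rRNA in genome order, from all 8 libraries (filled circles) and without vehicle replicate 3 (open squares); red rings mark the 5 called genes. The values are near or above 0 at MT-CO3 and MT-ND3 and reach -1.30 at MT-ND5, and most move toward 0 without vehicle replicate 3.

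The make-up of the mitochondrial mRNA pool differed accordingly. Complex I mRNAs took 24.3%, 25.99%, 30.7% and 23.5% of the mitochondrial mRNA counts with vehicle and 21.96%, 20.1%, 16.6% and 20.4% with TP-472, without overlap. Complex IV mRNAs took 69.9%, 69.0%, 61.5% and 71.8% with vehicle and 72.8%, 74.8%, 78.9% and 73.8% with TP-472, also without overlap. Without vehicle replicate 3 the vehicle means were 24.6% for complex I and 70.2% for complex IV. MT-CO3 alone went from a mean of 14.2% ± 3.09 to 22.6% ± 1.58 (SD, n = 4 each). MT-ND5 went from 7.13% ± 1.44 to 4.58% ± 0.717 and MT-ND4 from 9.54% ± 0.573 to 6.74% ± 0.999 (SD, n = 4 each), and the groups of each of these 3 genes did not overlap. The shares of every other mitochondrial mRNA overlapped between the groups. MT-CO1 had means of 41.8% ± 4.60 and 40.2% ± 1.47, and MT-ND1 of 4.31% ± 1.31 and 3.06% ± 0.494 (SD, n = 4 each). The 3 genes are named here after their values were seen.

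Levels per kilobase of gene length allow the genes to be ordered within the vehicle group. MT-CO1 was the highest at 736 ± 155 CPM per kb (SD, n = 4), followed by MT-CO2 at 496 ± 224, MT-CO3 at 477 ± 38.8 and MT-RNR2 at 457 ± 150 CPM per kb. MT-CO2, MT-CO3 and MT-RNR2 differed from each other by less than the largest of their SDs. Their order depended on vehicle replicate 3, since by the medians of the vehicle libraries MT-RNR2 (479) was above MT-CO3 (462) and MT-CO2 (401 CPM per kb). MT-ND4 (191 ± 51.7), MT-ND1 (129 ± 70.1), MT-ND5 (111 ± 49.1), MT-CYB (107 ± 63.3), MT-ND4L (90.6 ± 7.99) and MT-ND2 (89.2 ± 41.3 CPM per kb) came next, and neighbours in this run differed by less than the larger of their SDs. MT-ATP6 (59.4 ± 9.13), MT-RNR1 (54.7 ± 7.13) and MT-ND3 (44.3 ± 31.5) followed, and MT-ATP8 (15.4 ± 8.28) and MT-ND6 (8.92 ± 6.74 CPM per kb) were the lowest. With TP-472 MT-CO3 was at 510 ± 33.6 CPM per kb and MT-CO1 at 464 ± 70.5 CPM per kb (SD, n = 4 each), so that their order was exchanged, with values within the SD of MT-CO1.

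The rRNAs of the mitochondrial ribosome, 12S (MT-RNR1) and 16S (MT-RNR2), did not pass the test. MT-RNR1 was at 52.01, 57.3, 56.8 and 42.6 CPM with vehicle and at 48.5, 36.7, 26.8 and 43.1 CPM with TP-472 (log2 fold change -0.43 ± 0.19, SE, adjusted p = 0.1004 by edgeR's quasi-likelihood test). MT-RNR2 was at 750, 959, 397 and 743 CPM with vehicle and at 919, 594, 459 and 550 CPM with TP-472 (log2 fold change -0.18 ± 0.29, SE, adjusted p = 0.651 by the same test). Both overlapped between groups, and the lowest MT-RNR2 level of all was that of vehicle replicate 3. Without that library the log2 fold changes were -0.39 for MT-RNR1 and -0.38 for MT-RNR2. The MT-RNR2 to MT-RNR1 count ratio was 14.4, 16.7, 6.99 and 17.4 with vehicle and 18.9, 16.2, 17.1 and 12.8 with TP-472, although both rRNAs lie on the same precursor.

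Across the rRNAs and mRNAs, the ratio of rRNA to mRNA counts was 0.263, 0.450, 0.128 and 0.369 with vehicle and 0.547, 0.380, 0.309 and 0.282 with TP-472. These ranges overlapped widely. Abundant rRNAs are usually depleted or left behind during library preparation, and neither the labels nor the study's methods used here name such a step. A row lying within the RefSeq gene of the cytoplasmic 18S rRNA RNA18SN3 (FP236383.4, chr21:8393419-8394341) took 1.96%, 4.30%, 0.106% and 2.76% of the counts with vehicle and 3.03%, 1.82%, 0.891% and 0.519% with TP-472. It was lowest in vehicle replicate 3, as MT-RNR2 was. This row was chosen after its values were seen. It is annotated on the minus strand, which was not compared with the strand of RNA18SN3. Its share therefore gives no level of 18S rRNA, and its part in the rRNA results was not tested.

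RNAs without a poly(A) tail were abundant in all libraries. RN7SL1, the RNA of the signal recognition particle, took 3.89%, 5.35%, 2.77% and 5.37% of the counts with vehicle and 4.51%, 6.41%, 6.27% and 4.01% with TP-472. RPPH1, the RNA of nuclear RNase P, took 1.13%, 1.15%, 3.08% and 1.06% with vehicle and 0.949%, 1.43%, 1.43% and 0.870% with TP-472, being highest in vehicle replicate 3. RN7SL1, RN7SL2, RN7SK, RPPH1, MALAT1 and both rows named RMRP did not pass the test between the groups, with adjusted p of at least 0.113 by edgeR's quasi-likelihood test, whereas the nuclear long noncoding RNA NEAT1 fell by 0.89 on the log2 scale (adjusted p = 0.0194). The part of these RNAs in the mitochondrial results was not tested.

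**Figure D4:**
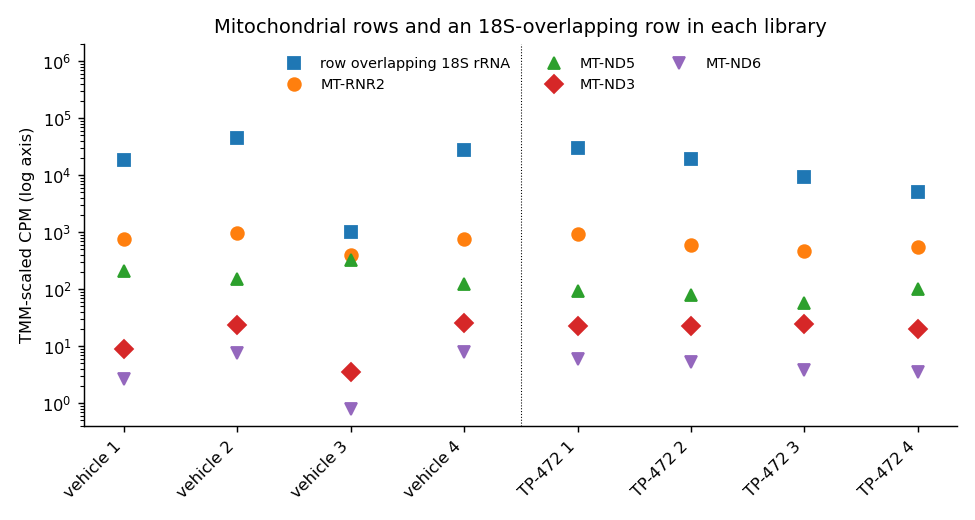
TMM-scaled CPM (log axis) of MT-RNR2, MT-ND5, MT-ND3, MT-ND6 and the row overlapping 18S rRNA in each of the 8 libraries, with a dotted line between the groups. Vehicle replicate 3 has the lowest point for the 18S-overlapping row, MT-RNR2 (397 CPM), MT-ND3 (3.52 CPM) and MT-ND6 (0.78 CPM) and the highest for MT-ND5 (323 CPM).

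All 22 tRNA rows were listed at 0 in all 8 libraries, so no tRNA could be ranked or tested and the ratio of tRNA to mRNA counts was 0 throughout. A count of 0 allows up to 3 counts, or 0.0778 to 0.0921 CPM of the library total depending on the library, which covers counting error only. The tRNA genes are 59 to 75 bases long, and none of 1031 other genes whose longest transcript has this length (170 snoRNA and 588 miRNA genes among them) had a count in any library. Of the snoRNA genes of 200 bases or more, 23 of 75 had a count. The zeros are thus shared with all other genes of that length, and they give no level for the tRNAs.

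Nuclear pseudogenes that derive from mitochondrial DNA could take reads from the mitochondrial genes. The table held 408 such rows, of which 68 had any count, and together they amounted to 0.265% to 0.424% of the mitochondrial counts in a library. MTATP6P1 had the most, with 2.54, 3.15, 4.68 and 2.27 CPM with vehicle and 2.38, 2.11, 1.44 and 1.92 CPM with TP-472 (log2 fold change -0.69, adjusted p = 0.0703 by edgeR's quasi-likelihood test). MTND2P28 was next (log2 fold change -0.59, adjusted p = 0.358 by the same test), and MTCO1P12, the third, was under the filter on low counts. All 3 lie close together on the short arm of chromosome 1, within chr1:629640-634376.

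Nuclear genes with mitochondrial roles were followed in 11 lists with 169 tested genes, covering DNA and RNA handling, regulators, subunits of complexes I to V, and the outer membrane, import and matrix. Of these, 21 were called higher and 1 lower. With all libraries the share called higher, 12.4%, was near the 12% of all tested genes. The share called lower was 0.592%, beside 14.9% of all tested genes. In the 4 lists of transcription, replication, RNA processing and RNA modification, which held 68 of these genes, 15 were called higher (22.1%) and 1 lower (1.47%). With single libraries left out, the number of these 68 called higher ranged from 8 (11.8%, without TP-472 replicate 2) to 17 (25%, without vehicle replicate 2). It was 9 without vehicle replicate 1, 10 without TP-472 replicate 1 or 3 and 12 (17.6%) without vehicle replicate 3. Over all tested genes, 1693 were called higher with all libraries, 1183 without TP-472 replicate 2 and 1785 without vehicle replicate 2. Without vehicle replicate 1, TP-472 replicate 1 and TP-472 replicate 3 these numbers were 1363, 1215 and 1165. Over all 11 lists without vehicle replicate 3 the counts were 16 higher and 2 lower (background 12% and 13.1%). The number called higher in the 11 lists was 34 without vehicle replicate 2 and 29 without vehicle replicate 4. It was 11 without vehicle replicate 1 and 10 without TP-472 replicate 2.

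Among 10 genes of mitochondrial transcription, 4 were called higher (background 12%), and the median log2 fold change was 0.45 (0.30 without vehicle replicate 3, with 2 called higher and 1 lower, MTERF2, which is named after its values were seen). The number called was 1 without vehicle replicate 1 or without any single TP-472 library. TFB2M, the factor that opens the promoter for the polymerase, rose by 1.27 ± 0.20 on the log2 scale (SE, edgeR's quasi-likelihood test, adjusted p = 0.00189), from 14.5 ± 3.87 to 35.0 ± 1.81 CPM (SD, n = 4 each). TFAM, which binds the promoters and packages the DNA, rose by 0.97 ± 0.30 (SE, adjusted p = 0.0348 by the same test), from 80.6 ± 33.7 to 157 ± 5.66 CPM (SD, n = 4 each). Both had the opposite sign to the called mitochondrial mRNAs.

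MTERF1, a factor that binds downstream of the rRNA genes, rose by 0.69 and TEFM, the elongation factor, by 0.61 on the log2 scale (adjusted p = 0.0422 and 0.0444, edgeR's quasi-likelihood test). Without vehicle replicate 3 their values of 0.49 and 0.43 were short of the 1.5-fold limit. The polymerase gene POLRMT itself did not pass the test, at 44.2 ± 25.9 CPM with vehicle and 36.0 ± 2.15 CPM with TP-472 (SD, n = 4 each), and its log2 fold change of -0.30 was 0.20 without vehicle replicate 3.

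Of 23 genes of RNA processing and decay, 5 were called higher (background 12%) and none lower (background 14.9%), with a median of 0.42. TRMT10C, a subunit of the mitochondrial RNase P that cuts the 5′ ends of tRNAs, rose by 1.21 ± 0.25 (SE, adjusted p = 0.00633, edgeR's quasi-likelihood test), whereas its catalytic partner PRORP had a log2 fold change of -0.10 (adjusted p = 0.505). FASTKD5, needed to mature mRNAs that are not flanked by tRNAs, rose by 1.09 ± 0.14 (SE, adjusted p = 7.13e-04 by the same test), and FASTKD3 rose by 0.78 (adjusted p = 0.0134). SUPV3L1, the helicase of the RNA degrading complex, rose by 0.66 (adjusted p = 0.00294, and 0.57 without vehicle replicate 3, short of the 1.5-fold limit), and its nuclease partner PNPT1 had a value of 0.40 (adjusted p = 0.127).

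ELAC2, which cuts tRNA 3′ ends, MTPAP, the mitochondrial poly(A) polymerase, and SLIRP had log2 fold changes of 0.46, 0.43 and 0.42 (adjusted p = 0.0102, 0.0171 and 0.0159, edgeR's quasi-likelihood test), short of the 1.5-fold limit. LRPPRC, the partner of SLIRP in protecting mitochondrial mRNAs, was at 425 ± 86.8 CPM with vehicle and 470 ± 22.2 CPM with TP-472 (SD, n = 4 each, log2 fold change 0.14, adjusted p = 0.490 by the same test). Among 19 genes that modify rRNA and tRNA, 4 were called higher (background 12%), or 2 without TP-472 replicate 2 and with upper-quartile or total-count scaling. With all libraries the 3 largest called values were those of the 16S rRNA methyltransferases MRM3 (0.75) and MRM2 (0.65) and the tRNA thiolase TRMU (0.59 on the log2 scale). MRM1, another 16S rRNA methyltransferase that is named after its values were seen, had a value of 0.80 that did not pass the test (adjusted p = 0.0836, edgeR's quasi-likelihood test) and was called at 1.27 without vehicle replicate 3 (adjusted p = 3.83e-05).

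Of 16 genes of mitochondrial DNA replication and maintenance, 2 were called higher and 1 lower (background 12% and 14.9%), with a median of 0.08. TWNK, the replicative helicase, rose by 0.96 ± 0.13 (SE, edgeR's quasi-likelihood test, adjusted p = 0.00114) and the single-strand binding protein gene SSBP1 by 0.74 (adjusted p = 0.0469). The value of SSBP1 without vehicle replicate 3 was 0.52, short of the 1.5-fold limit, and 1 gene of the list was called higher. The number called higher was likewise 1 without vehicle replicate 1 or without any single TP-472 library. TK2, the mitochondrial thymidine kinase, fell by 0.88 ± 0.11 on the log2 scale (SE, adjusted p = 6.96e-04 by the same test). POLG, the DNA polymerase, did not pass the test (log2 fold change -0.16, adjusted p = 0.484). None of the 7 tested regulators was called, and NRF1, GABPA, PPRC1 and ESRRA had log2 fold changes of 0.04, 0.08, -0.04 and 0.32. These values, without vehicle replicate 3, were 0.08, -0.09, 0.39 and 0.55, and PPARGC1B was called higher (0.73, adjusted p = 0.00620 by the same test, beside 0.51 with all libraries). GABPB1 had the largest value of the list, 0.65 with all libraries (adjusted p = 0.0528), and both are named after their values were seen. PPARGC1A, the coactivator known for driving mitochondrial biogenesis, had 0 to 2 counts in the vehicle libraries and 4 to 7 in the TP-472 libraries and was under the filter. The list of regulators had 1 call, higher, without vehicle replicate 2 or 4, with total-count scaling, with limma-voom and with a filter at 0.1 CPM. It had 2 calls, both higher, with DESeq2 and with the GC trend removed.

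The nuclear genes for subunits of oxidative phosphorylation had mostly positive values. Of 78 tested nuclear genes of complexes I to V, 2 were called higher (background 12%) and none lower (background 14.9%), and 11 had a value below 0. The number called higher was 11 without vehicle replicate 2 and 7 without vehicle replicate 4. It was 1 without vehicle replicate 1 or 3 or without TP-472 replicate 1, 2 or 3, and none was called lower in any of these fits. Over all tested genes, the number called higher was 1693 with all libraries. Without vehicle replicates 1 to 4 in turn it was 1363, 1785, 1660 and 1716. Without TP-472 replicates 1, 2 and 3 it was 1215, 1183 and 1165. The median log2 fold change of the 78 genes was 0.35 (0.18 without vehicle replicate 3), beside -0.03 over all genes. By complex, the nuclear medians were 0.30 for 37 complex I genes, 0.41 for 9 complex III genes, 0.43 for 11 complex IV genes and 0.39 for 17 complex V genes. The mitochondrial medians were -0.82 for the 7 complex I mRNAs, -1.05 for MT-CYB, -0.65 for the 3 complex IV mRNAs and -0.54 for the complex V pair. When vehicle replicate 3 was left out, the nuclear medians were 0.14, 0.19, 0.26 and 0.23 for complexes I, III, IV and V, and the mitochondrial medians were -0.70, -0.62, -0.29 and -0.29. The difference between nuclear and mitochondrial genes was not tested.

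The called complex I genes were NDUFS6, which went from 36.2 ± 11.7 to 60.1 ± 5.84 CPM, and NDUFC2, which went from 33.5 ± 6.91 to 55.3 ± 2.26 CPM (SD, n = 4 each, adjusted p = 0.0353 and 0.00717, edgeR's quasi-likelihood test). The log2 fold change of NDUFS6 without vehicle replicate 3 was 0.54, short of the 1.5-fold limit. The number of complex I genes called was likewise 1 without vehicle replicate 1 or any single TP-472 library, 3 without vehicle replicate 4 and 4 without vehicle replicate 2. Complex II, which has no mitochondrial subunit, had 4 tested genes with a median of 0.26 and no call. Among 16 genes of the outer membrane, import and matrix, 4 were called higher (background 12%), including the import receptors TOMM22 (0.73) and TOMM70 (0.62) and the matrix chaperone HSPA9 (0.65 on the log2 scale), and none was called lower. The calls of TOMM70 (0.45) and HSPA9 (0.47) ended without vehicle replicate 3, as did that of TIMM23 (0.44), while TOMM40 was called (0.76, beside 0.51 with all libraries). TIMM23 and TOMM40 are named after their values were seen. The list's count was 1 without vehicle replicate 1 or without TP-472 replicate 1, 2 or 3, and 2 without TP-472 replicate 4.

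**Figure D5:**
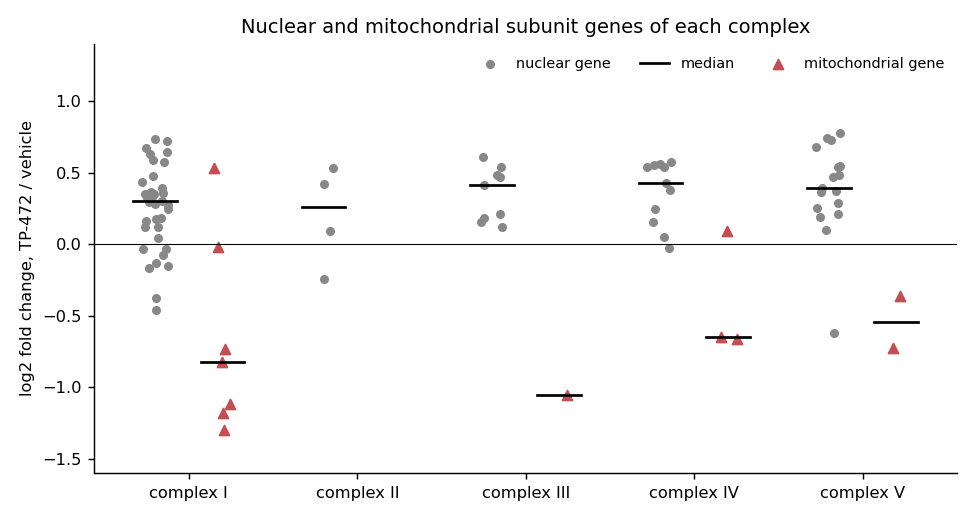
Log2 fold change (TP-472 over vehicle) of each nuclear subunit gene (grey circles) and each mitochondrial mRNA (red triangles) of complexes I to V, with black bars at the medians. The nuclear medians lie between 0.26 and 0.43, and those of the mitochondrial genes between -1.05 and -0.54, with MT-ND3, MT-ND6 and MT-CO3 near or above 0.

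Markers of other cell types were read from fixed lists. The summed levels of the 3 leukocyte markers were 6.66 to 7.88 CPM with vehicle and 8.91 to 12.1 CPM with TP-472, nearly all from CD68, while PTPRC and CD3E were at or near 0. The 3 endothelial markers summed to at most 0.580 CPM in any library. Of the 5 epithelial markers, KRT18 was called higher and KRT19 lower, with sums of 17.5 to 23.01 CPM with vehicle and 20.3 to 26.7 CPM with TP-472. Of the 6 genes listed as fibroblast markers, 4 were tested and COL1A1, COL1A2 and PDGFRB were called lower, beside 14.9% of all tested genes. Their sum, nearly all of it COL1A2, went from 529 to 723 CPM with vehicle to 97.5 to 108 CPM with TP-472, although DCN and LUM were at or near 0 in every library. Of the 10 smooth muscle markers, 9 were tested and 4 were called lower, beside the same 14.9%, and the sums were 803, 876, 1207 and 877 CPM with vehicle and 730, 739, 747 and 681 CPM with TP-472, with TPM2 the most abundant. The part of these markers in the mitochondrial results was not tested.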

How the data were processed

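Per the submitters' processing notes and the study's methods, the authors estimated transcript counts with Salmon 1.4.0 and summed them to genes (GENCODE release 34, GRCh38). The deposited values are estimated counts per gene, not normalized, and were rounded for testing. The labels name a TruSeq RNA kit and the study's methods strand-specific total RNA libraries; a strand setting for counting is not given in the sources used here.

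Genes over 1 CPM in at least 4 of 8 libraries were tested, TP-472 against vehicle without covariates, in edgeR 4.0.16 (R 4.3.3) with TMM scaling and the quasi-likelihood test. Calls needed a Benjamini-Hochberg adjusted p under 0.05 and a fold over 1.5. The members, lists and named genes (all mitochondrial mRNAs and rRNAs, set factors, the called genes with the largest changes in each list, the most counted pseudogenes) were chosen with earlier results of these data known. Coordinates came from GENCODE release 29 by gene identifier (96.39% of rows matched). The fit was tested on simulated data with known changes. It called 55 of 100 changes of 2-fold, 97 of 100 changes of 4-fold and 12 of 13873 unchanged genes. A gene that did not pass the test can therefore still have changed about 2-fold. No 2 libraries agreed within counting noise. DESeq2 1.42.0, limma-voom 3.58.1, other scalings and filters, and each library left out were tried as alternatives.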

Additional observations from a re-analysis of the deposited data

Results flagged for a closer look

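Among 40 groups of 4 libraries examined (levels of 15 mitochondrial genes, 3 shares and 2 ratios), 1 held a library set far apart from the rest of its group, and chance alone gives about 1 in 20. MT-CO1 stood at 877 CPM in TP-472 replicate 4, against 646 to 679 CPM in the other TP-472 libraries. The gap to its nearest neighbour was 0.855 of the group's range, past Dixon's critical value for 4 values. Without that library the log2 fold change of MT-CO1 was -0.78, the lowest among the fits with a single library left out (-0.78 to -0.55).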

How the results depend on the processing

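MT-ND5 and MT-ND4 were called in 20 of 20 alternative fits, MT-ND4L in 17, MT-CO1 in 15 and MT-ND1 in 14. Of the genes not called with all libraries, MT-ND2 was called in 7, MT-CYB in 5, MT-CO2 in 2 and MT-RNR1 and MT-ATP8 in 1 each. The number of mitochondrial genes called lower was 5, and 8 with DESeq2, 8 with the GC trend removed (an alternative added after seeing the data) and 3 with a replicate block; it ranged from 2 to 9 with single libraries left out. It was 2 without TP-472 replicate 1, 2 or 3, 3 without vehicle replicate 1 and 9 without vehicle replicate 4. The number of all genes called, 3789, ranged from 2486 to 4110 with single libraries left out (2486 without TP-472 replicate 3), and that over the lists of nuclear genes, 22, from 11 to 35, with 45 at an adjusted p under 0.05 and no limit on the fold. The list count was 11, 12, 13 and 13 without TP-472 replicate 2, vehicle replicate 1, TP-472 replicate 1 and TP-472 replicate 3, and 35 without vehicle replicate 2. Same-numbered libraries did not deviate together (correlations of -0.06, 0.12, -0.17 and -0.18), so the numbers were not taken as pairs. Between differently numbered libraries the correlations ranged from -0.30 (vehicle replicate 1 with TP-472 replicate 2) to 0.40 (vehicle replicate 1 with TP-472 replicate 4). Whether these libraries share a source of deviation was not tested. The log2 fold change of MT-ND6 turned from -0.02 to 0.44 with limma-voom, 0.37 with the replicate block and between -0.37 and 0.33 with single libraries left out, and that of MT-CO3 from 0.09 to -0.041 with the GC trend removed; the cause was not tested. The share of counts in all mitochondrial rows differed between the groups by -0.55 on the log2 scale, and by -0.65 to -0.46 with single libraries left out. The tRNA share and the tRNA to mRNA ratio were 0, so no alternative gave a value.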
